A study of Solanum lycopersicum with 8 samples.

Results

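PROCERA (Solyc11g011260.1) is the DELLA gene of tomato, and its transcript is described here across the 4 groups of a gibberellin experiment. It was taken as the row of the raw count table whose identifier, before the dot, is Solyc11g011260, which is 1 of 34722 identifiers. The identifier places the gene on chromosome 11, and the RefSeq gene table for assembly SLM_r2.1 also lists PROCERA on chromosome 11, under the symbol GAI. That table does not carry the identifiers of the count table, so no coordinates were used and other genes are given by identifier only.

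RNA was sequenced from young leaves of tomato seedlings. The groups were pro∆GRAS with paclobutrazol and GA3, pro∆GRAS with paclobutrazol alone, M82 with paclobutrazol and GA3, and M82 with paclobutrazol alone, with 2 libraries in each. Every group had received paclobutrazol, an inhibitor of gibberellin synthesis, at 10 mg/l daily for 3 days. GA3, a bioactive gibberellin, was given once at 100 µM, and leaves were taken 3 hours later. M82 is a processing cultivar with a functional PROCERA gene, and pro∆GRAS is a line that carries a procera allele named for the loss of the GRAS domain. The columns of the count table call this genotype "null". The labels do not say whether a replicate was a plant or a pool, and p-values therefore reflect library-to-library spread, which may be technical. The labelled leaf tissue was not checked against marker genes, because the identifiers are not paired with names.

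DELLA proteins are nuclear repressors of growth that belong to the GRAS family of transcriptional regulators. Gibberellin binds the receptor GID1, the complex binds DELLA through its N-terminal part, and an F-box protein then marks DELLA for breakdown, which releases the gibberellin response. The C-terminal GRAS domain carries the contacts with transcription factors. Loss of PROCERA gives tall, slender plants with simpler leaves that behave as if saturated with gibberellin. Read counts measure the transcript, and neither the protein nor its breakdown was measured.

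PROCERA was read in every library, including all 4 of the mutant. The pro∆GRAS libraries with GA3 held 1289 and 1140 PROCERA reads, and the pro∆GRAS libraries without GA3 held 1163 and 1234. The M82 libraries with GA3 held 3479 and 2676 reads, and the M82 libraries without GA3 held 1541 and 1560. The 2 libraries with the most PROCERA reads were both M82 with GA3, and the 4 with the fewest were the pro∆GRAS libraries. Library totals ran from 14395465 to 18483028 counts. With counts of this size the counting error of a library (1 SD of a Poisson count) lay between 1.7% and 2.96%. Levels below are CPM, read counts brought to a common library size, and are scaled with edgeR's TMM factors, which correct for differences in RNA make-up between libraries.

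The level was highest in M82 with GA3, intermediate in M82 without GA3 and lowest in pro∆GRAS. The pro∆GRAS libraries with GA3 were at 61.1 CPM (library 1) and 60.6 CPM (library 3), with a mean of 60.8 ± 0.313 CPM (SD, n = 2). The pro∆GRAS libraries without GA3 were at 60.2 CPM (library 1) and 69.1 CPM (library 3), with a mean of 64.7 ± 6.26 CPM (SD, n = 2). These 2 groups overlapped, since both GA3 libraries lay between the 2 libraries without GA3. The M82 libraries with GA3 were at 192 CPM (library 1) and 188 CPM (library 2), with a mean of 190.0 ± 3.17 CPM (SD, n = 2). The M82 libraries without GA3 were at 101 CPM (library 1) and 126 CPM (library 3), with a mean of 113 ± 17.9 CPM (SD, n = 2). Both M82 libraries with GA3 lay above both M82 libraries without it, which in turn lay above all 4 pro∆GRAS libraries. This full order without overlap was seen in 235 of the 18340 genes tested, or 1.28%. The order was taken from the values of PROCERA, so this share is a description and no test. Neighbouring groups in this order did not differ past the threshold over all genes (edgeR adjusted p = 0.502 between the M82 groups, 0.213 between M82 and pro∆GRAS without GA3 and 1 between the pro∆GRAS groups).

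**Figure D1:**
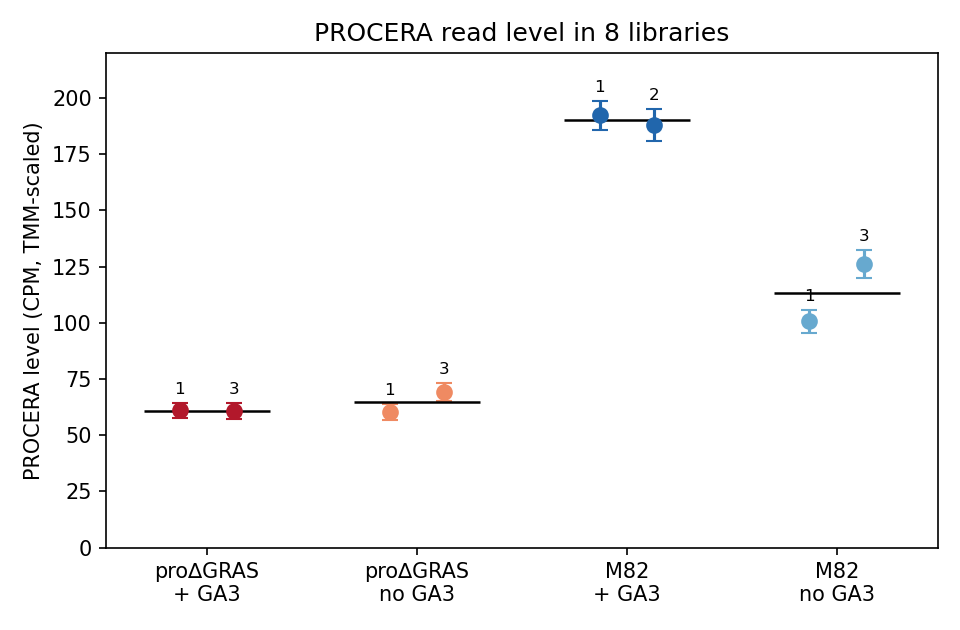
PROCERA level in each library in TMM-scaled CPM. Points are libraries with their number in the count table, error bars are 95% Poisson intervals of the count (counting error only) and horizontal lines are group means. The 4 pro∆GRAS libraries sit between 60.2 and 69.1 CPM, the M82 libraries without GA3 at 101 and 126 CPM, and the M82 libraries with GA3 at 188 and 192 CPM.

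The M82 libraries without GA3 were the least alike for this gene. Their 95% counting intervals, 95.7 to 106 CPM in library 1 and 120 to 132 CPM in library 3, did not overlap, so their gap exceeded counting error. Divided by the library total alone, the same libraries were at 105 and 108 CPM. The gap appeared with the TMM factors, 1.04 for library 1 and 0.861 for library 3. It also appeared with DESeq2's RLE size factors (102 and 126 CPM). PROCERA reads per read of the adjacent identifier Solyc11g011250.1, which need no scaling, were 0.707 in library 1 and 0.877 in library 3. M82 library 3 without GA3 and M82 library 2 with GA3 had the lowest TMM factors (0.861 and 0.811) and stood apart in make-up, with 45.5% and 50.3% of their counts in the 100 most abundant genes, against 31.4% to 41.3% in the other 6 libraries. Over all 8 libraries the within-group SD of PROCERA's log2 CPM was 0.135 (4 degrees of freedom). The median was 0.274 over the 11266 genes whose mean reached 5 CPM, many of them with fewer reads. By edgeR's estimate, the coefficient of variation of PROCERA beyond counting error was 19.7%, close to the median of 21.8% over the same genes.

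The question of the genotype comparison is whether loss of the functional DELLA protein goes with a different level of its own transcript. PROCERA fell in pro∆GRAS. Averaged over both treatments, the 4 pro∆GRAS libraries had a mean of 62.7 CPM (range 60.2 to 69.1). The 4 M82 libraries had a mean of 152 CPM (range 101 to 192), and this range spans both treatments. The log2 fold change was -1.23 (SE 0.165, 95% interval -1.59 to -0.86), a level of 0.428 times that of M82 (95% interval 0.331 to 0.552). The adjusted p was 0.00693 with edgeR's quasi-likelihood test, adjusted over all 18340 genes tested, and PROCERA ranked 71 by p. In this contrast 3.05% of genes were called at an adjusted p under 0.05 (1.1% as lower in pro∆GRAS), and 359 genes had a more negative log2 fold change than PROCERA. Ranges of all 4 M82 libraries above all 4 pro∆GRAS libraries were seen in 5.8% of genes. An exact two-sided permutation test on PROCERA alone, with genotypes exchanged within each treatment, gave p = 0.0556, the smallest p its 36 arrangements allow. The edgeR call was lost without pro∆GRAS library 1 without GA3 (log2 fold change -1.15). In the alternatives that kept all 8 libraries, the DESeq2 adjusted p was 3.47e-09. Those of edgeR ran from 0.000122 without the filter to 0.0152 with library totals only.

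The counts are per gene and do not show where in the gene the reads lie. Fewer PROCERA transcripts, and transcripts of the mutant allele that are shorter or are less often mapped and counted, cannot be told apart in these counts. In a leaf sample, fewer cells that express the gene and less transcript per cell cannot be told apart either.

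The genotype contrast with GA3 is part of the average above, so the 2 calls are not independent. With GA3, PROCERA was lower in pro∆GRAS. It had 61.1 and 60.6 CPM in pro∆GRAS, against 192 and 188 CPM in M82, and the groups did not overlap. The level was 0.320 times that of M82 (95% interval 0.222 to 0.461), with a log2 fold change of -1.64 (SE 0.235) and an adjusted p of 0.0323 (edgeR). In this contrast 0.354% of genes were called (0.164% as lower in pro∆GRAS), and PROCERA ranked 26 by p. With TMM scaling, the 4 pairings of a pro∆GRAS with an M82 library gave log2 ratios between -1.67 and -1.62. The pairings share libraries, so they are not 4 separate observations. The values lay further apart with library totals alone, at 71.1 and 66.8 CPM in pro∆GRAS and 196 and 152 CPM in M82. The call was lost with library totals as the only scaling (log2 fold change -1.34, edgeR adjusted p = 0.0588). It was also lost without M82 library 1 or 2 with GA3 (adjusted p = 0.180 and 0.186), without pro∆GRAS library 1 or 3 without GA3 (0.0890 and 0.0884) and without pro∆GRAS library 1 or 3 with GA3 (0.192 and 0.0951), while the log2 fold change stayed between -1.65 and -1.58. In the alternatives that kept all 8 libraries, the DESeq2 adjusted p was 1.33e-07. Those of edgeR ran from 0.000873 without the filter to 0.0588 with library totals only.

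Without GA3, the genotype difference in PROCERA did not pass the threshold. The gene had 60.2 and 69.1 CPM in pro∆GRAS, against 101 and 126 CPM in M82, and these ranges did not overlap either. The log2 fold change was -0.81 (SE 0.231, 95% interval -1.33 to -0.29), which is 0.571 times the M82 level. The edgeR unadjusted p was 0.00606 and the adjusted p 0.213 (DESeq2 adjusted p = 0.0554), in a contrast where 0.393% of genes were called 10.2% had an unadjusted p under 0.05, and DESeq2 called 2.25%. Ranges of both M82 libraries above both pro∆GRAS libraries were seen in 17.6% of genes without GA3 and in 25.2% with GA3.

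The question of the treatment comparison is whether GA3 goes with a change of the DELLA transcript within 3 hours. In M82 the level was 192 and 188 CPM with GA3, against 101 and 126 CPM without it. The log2 fold change was 0.75 (SE 0.230, 95% interval 0.23 to 1.26), or 1.68 times the level without GA3 (95% interval 1.17 to 2.40). The 4 pairings of a GA3 library with a library without GA3, which share libraries, gave ratios of 1.49 to 1.91. This difference did not pass the threshold over all genes (edgeR unadjusted p = 0.00931, adjusted p = 0.502; DESeq2 adjusted p = 0.256). The background bears on that reading: 0.0164% of genes were called in this contrast by edgeR and 0.589% by DESeq2, 7.62% had an unadjusted p under 0.05, and 19.3% had both GA3 libraries above both libraries without GA3. PROCERA ranked 340 by p, and 1513 genes had a higher log2 fold change. With 2 libraries against 2, an exact two-sided permutation test cannot go below p = 0.333.

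In pro∆GRAS the level was 61.1 and 60.6 CPM with GA3, against 60.2 and 69.1 CPM without it. The log2 fold change was -0.09 (SE 0.230, 95% interval -0.60 to 0.43), or 0.941 times the level without GA3 (95% interval 0.659 to 1.34; edgeR adjusted p = 1). The interval leaves room for a rise of up to 1.34 times or a fall to 0.659 times. The edgeR test called 0% of genes in this contrast, where 489 genes (2.67%) had an unadjusted p under 0.05 and DESeq2 called 29 (0.158%). The sign of the value for PROCERA changed with library totals as the only scaling (0.06) and without pro∆GRAS library 3 without GA3 (0.02). Averaged over both genotypes, the GA3 effect on PROCERA was a log2 fold change of 0.33 (SE 0.162, 95% interval -0.03 to 0.69; edgeR adjusted p = 0.837), in a contrast where edgeR called 0% of genes, 6.15% had an unadjusted p under 0.05 and DESeq2 called 0.496%.

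The difference between the GA3 effects was tested itself. The GA3 log2 fold change of PROCERA was -0.09 in pro∆GRAS and 0.75 in M82, a difference of -0.83 (SE 0.325, 95% interval -1.56 to -0.11). It did not pass the threshold (edgeR unadjusted p = 0.0289, adjusted p = 0.994). The edgeR test called 0% of genes for this difference, with 3.76% at an unadjusted p under 0.05, and DESeq2 called 20 genes (0.109%). A different GA3 effect on PROCERA in the genotypes was therefore not established over all genes, and neither was a different genotype effect with and without GA3, which is the same quantity. The value was negative under all 15 alternatives, from -1.01 to -0.65.

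**Figure D2:**
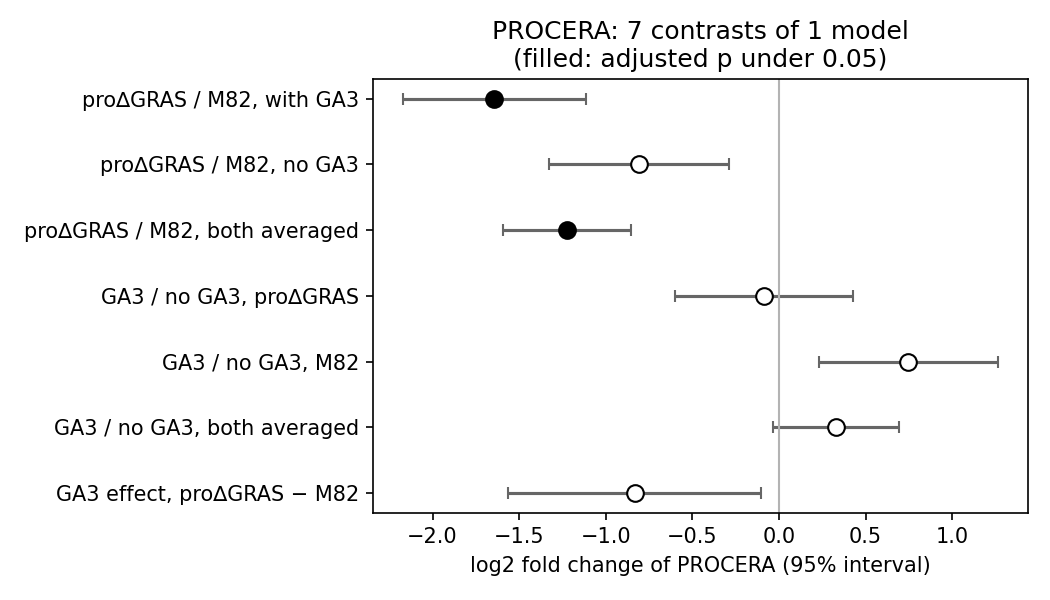
Log2 fold changes of PROCERA in 7 contrasts of the model of all 8 libraries, with 95% intervals from edgeR's quasi-likelihood fit. Filled points have an adjusted p under 0.05: the genotype effect with GA3 (-1.64) and its average over both treatments (-1.23). Open points, among them the GA3 effect in M82 (0.75) and in pro∆GRAS (-0.09), did not pass.

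The levels were set side by side under other scalings of the libraries. With RLE size factors, the scaling that DESeq2 uses, PROCERA stood at 60.8 and 61.2 CPM in pro∆GRAS with GA3, 59.9 and 69.0 CPM in pro∆GRAS without GA3, 191 and 187 CPM in M82 with GA3, and 102 and 126 CPM in M82 without GA3. With library totals alone it stood at 71.1 and 66.8 CPM in pro∆GRAS with GA3, 63.0 and 69.4 CPM in pro∆GRAS without GA3, 196 and 152 CPM in M82 with GA3, and 105 and 108 CPM in M82 without GA3. The order of M82 with GA3, M82 without GA3 and pro∆GRAS held under each of these scalings. Without both M82 libraries that stood apart, log2 fold changes were -1.14 for the genotype averaged over treatments (edgeR adjusted p = 0.0168), -1.65 for the genotype with GA3 (adjusted p = 0.0498), -0.64 for the genotype without GA3 (adjusted p = 0.559) and 0.94 for GA3 in M82 (adjusted p = 0.982). In that fit each M82 group is 1 library, which is assumed to vary like the pro∆GRAS libraries.

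A ratio of 2 genes within a library needs no scaling at all. The next lower identifier on chromosome 11, Solyc11g011250.1, was read 1779 to 2406 times per library and was called in none of the 7 contrasts. PROCERA reads per read of this gene came to 0.549 and 0.566 in pro∆GRAS with GA3, and to 0.588 and 0.513 in pro∆GRAS without GA3. They came to 1.47 in both M82 libraries with GA3, and to 0.707 and 0.877 in M82 without GA3. As with the CPM values, both M82 groups lay above pro∆GRAS and M82 with GA3 lay highest, while the pro∆GRAS groups overlapped. The M82 libraries with GA3, which differed under library totals, had almost the same ratio. The mean log2 ratio was higher by 0.90 with GA3 in M82, and by 0.02 with GA3 in pro∆GRAS. Between the genotypes, pro∆GRAS minus M82, the mean log2 ratio differed by -1.40 with GA3 and by -0.52 without it. This ratio shows unequal change of the pair, and was chosen after the values were seen.

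**Figure D3:**
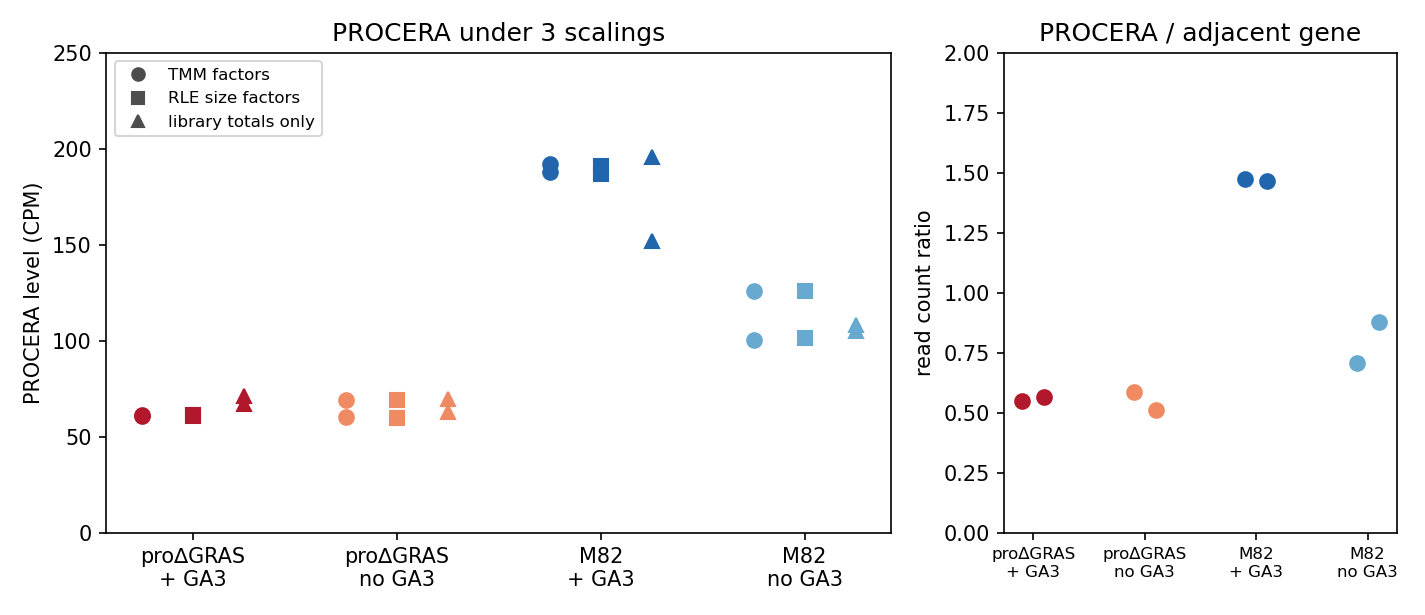
Left, PROCERA in CPM under 3 scalings, where each point is a library. Right, PROCERA reads divided by reads of the adjacent identifier Solyc11g011250.1 in the same library. Under library totals the M82 libraries with GA3 spread to 196 and 152 CPM, while their ratio is 1.47 in both; the pro∆GRAS libraries lie lowest in each panel.

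The genes beside PROCERA were examined because the mutant allele lies in this region. Identifiers of the count table number genes along the chromosome, and the 10 before and 10 after PROCERA were taken. Of these 20, 12 had enough reads to be tested and 4 had no read in any library. For the genotype averaged over treatments, 5 of the 12 had higher and 7 had lower values in pro∆GRAS, with a median log2 fold change of -0.13, against 0.01 over all genes tested. The value of PROCERA, -1.23 (SE 0.165), lay below all 12. Their lowest was -1.16 (SE 0.377) in Solyc11g011180.1, a gap smaller than either SE. With GA3 the value of PROCERA also lay below all 12 (-1.64, SE 0.235). The lowest there was -1.41 (SE 0.549), again in Solyc11g011180.1. Without GA3 PROCERA (-0.81) lay above 2 of them, Solyc11g011240.1 (-1.54, from 57 reads over all libraries) and Solyc11g011180.1 (-0.91, from 202 reads). For GA3 in M82, the median of the 12 was -0.13 and their highest value was 0.49, against 0.75 for PROCERA.

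Of the 12 neighbours, 1 was called with edgeR for the genotype averaged over treatments, where 3.05% of all genes were called. In that contrast 3 of the 12 had an unadjusted p under 0.05, against 19.4% of all genes. In the other 6 contrasts edgeR called 0 of the 12, and 0 to 2 of them had an unadjusted p under 0.05, against 2.67% to 14.7% of all genes. The called gene was Solyc11g011340.1, the eighth identifier after PROCERA, named here after its values were seen. It had 467 and 43 reads in pro∆GRAS with GA3 and 222 and 44 reads in pro∆GRAS without GA3, against 3 and 5 reads in M82 with GA3 and 5 and 4 reads in M82 without GA3. Its log2 fold change was 4.99 (SE 0.898, edgeR adjusted p = 0.0250). The M82 values lay near the floor, at 0.166 to 0.351 CPM. The mutant libraries numbered 1 held far more reads than those numbered 3. PROCERA itself showed no such split by library number, with 61.1 and 60.2 CPM in the mutant libraries numbered 1 and 60.6 and 69.1 CPM in those numbered 3.

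**Figure D4:**
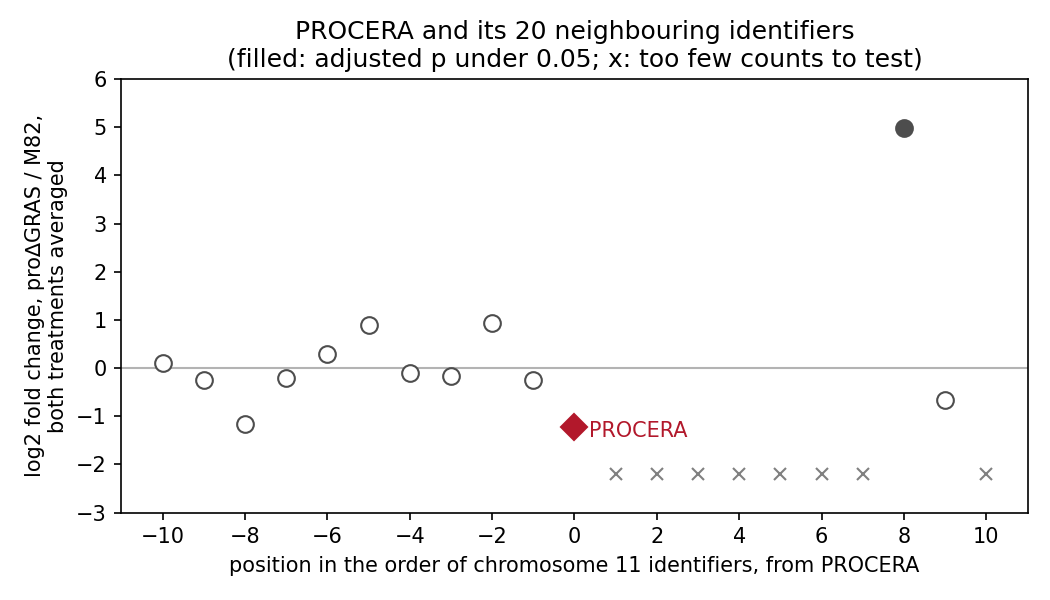
Log2 fold change between pro∆GRAS and M82, averaged over both treatments, for PROCERA (diamond) and its neighbouring identifiers on chromosome 11 in table order. Filled circles have an edgeR adjusted p under 0.05, open circles do not, and crosses at the bottom mark identifiers with too few reads to test, which have no value. PROCERA lies at -1.23, and the filled circle at 4.99 is Solyc11g011340.1.

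The genes with the most similar pattern were found over all 8 libraries. Likeness was the root mean square difference between the log2 CPM values of a gene and of PROCERA, each centred on its own mean, so that 0 means the same relative level in every library. Among the 11265 other genes whose mean reached 5 CPM, the median difference was 0.709, and a gene with equal levels in all libraries would lie at 0.674. The 4 nearest were Solyc06g068950.2 at 0.189, Solyc06g068040.2 at 0.190, Solyc11g071460.1 at 0.199 and Solyc03g121890.1 at 0.209. They are the same 4 genes with RLE size factors and with library totals. As a description, these genes were chosen for their pattern, so no test is read from it.

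Solyc06g068040.2 came closest to PROCERA in both contrasts of M82 with GA3. It had 7.34 and 9.57 CPM in pro∆GRAS with GA3 and 7.51 and 9.01 CPM in pro∆GRAS without GA3, against 22.9 and 33.2 CPM in M82 with GA3 and 15.3 and 17.4 CPM in M82 without GA3. Its log2 fold change for the genotype with GA3 was -1.73 and that for GA3 in M82 was 0.78, beside -1.64 and 0.75 for PROCERA. Solyc06g068950.2 had 19.8 and 17.8 CPM in pro∆GRAS with GA3 and 16.9 and 18.0 CPM in pro∆GRAS without GA3, against 42.4 and 47.7 CPM in M82 with GA3 and 30.4 and 42.8 CPM in M82 without GA3. Its GA3 values in M82 overlapped with those without GA3, and its log2 fold change for GA3 in M82 was 0.30. The other two had log2 fold changes for GA3 in M82 of 0.43 (Solyc11g071460.1) and 0.54 (Solyc03g121890.1), and for the genotype with GA3 of -1.25 and -1.24.

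**Figure D5:**
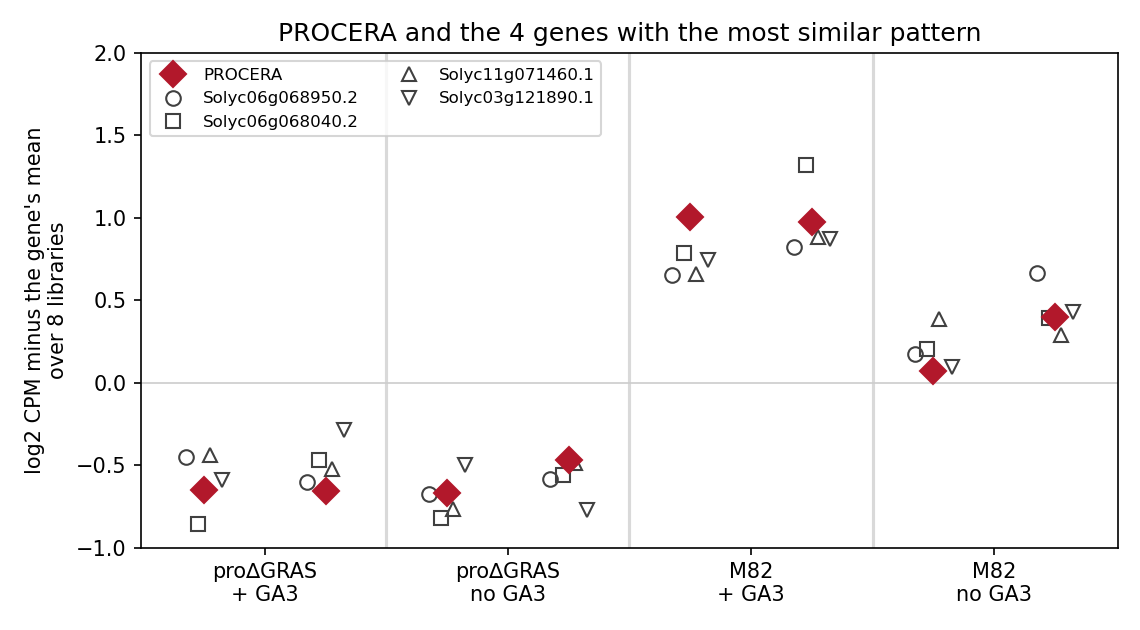
Log2 CPM of PROCERA (diamonds) and of the 4 nearest genes (open symbols) in each library, minus the mean of the gene over the 8 libraries. All 5 genes lie below their own mean in the 4 pro∆GRAS libraries and above it in the 4 M82 libraries. PROCERA and Solyc06g068040.2 have the widest step between M82 with and without GA3, with log2 fold changes of 0.75 and 0.78.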

How the data were processed

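Reads per gene were counted in young leaves of 8 tomato libraries, 2 per group. The deposited table holds raw counts per gene and, per the file headers, 8 further columns of DESeq-normalized counts, which were not used. The submitters' processing notes name TopHat2 2.0.10, HTSeq 0.6.1p1 and DESeq2 1.6.3; build, annotation and counting options are not given in the sources used here. The kit given in the labels' protocols (Illumina TruSeq RNA, version 2) does not mark strand, so reads of an overlapping antisense gene could not be told apart. Of the 8 count columns, 5 match a sample title and 3, numbered 3, match only a group; libraries carry the number of the table. Within each group, neither library was a copy of the other (chi-square per degree of freedom 34.1 to 82.4). Libraries of different groups were not compared in this way.

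The filter was filterByExpr in edgeR 4.0.16 with a minimum count of 10, and it kept 18340 of 34722 genes with 99.9% of counts. The raw counts, scaled with TMM, went into a robust quasi-likelihood fit and F test in R 4.3.3, as 1 model of 4 group means with 4 residual degrees of freedom. Adjusted p-values are Benjamini-Hochberg over all of these genes, and a gene with a value under 0.05 is termed called. SE was derived as the log2 fold change over the root of F. Log2 CPM used a prior count of 2. Intervals on counts cover counting error only. The procedure was also run on counts simulated with the spread that edgeR estimated here. That run checks the code, and cannot show whether 2 libraries per group are enough. Alternatives were DESeq2 1.42.0, 2 other scalings, no filter, a filter of 5 CPM in 2 libraries, fits of the compared libraries, a replicate block and leaving out each library. Leaving out both M82 libraries that stand apart was chosen after seeing the data, as were the other scalings for likeness. The gene, the lists and the tests were chosen with earlier results of these data known. The rule for named genes took the 4 nearest to PROCERA in pattern and the identifiers beside it; gibberellin pathway genes and leaf markers, defined by description, were not analysed here, because 0 of 41476 RefSeq genes carry these identifiers.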

Additional observations from a re-analysis of the deposited data

How the results depend on the processing

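The lower PROCERA level in pro∆GRAS kept its sign under every alternative run. It was called in 14 of 15 alternatives averaged over treatments, in 9 of 16 with GA3 and in 0 of 16 without GA3. With library totals only, the genotype effect with GA3 was -1.34 and no longer called, the GA3 effect in pro∆GRAS turned to 0.0589, and mean levels were 69.0 CPM in pro∆GRAS and 174 CPM in M82 with GA3; the cause was not tested. Leaving out each library gave log2 fold changes of -1.30 to -1.15 for the genotype averaged over treatments, -1.65 to -1.58 for the genotype with GA3 and -0.18 to 0.0169 for GA3 in pro∆GRAS, the last with both signs. Mean levels then ran from 60.0 to 63.2 CPM in pro∆GRAS with GA3 and from 183 to 198 CPM in M82 with GA3. Without both M82 libraries that stand apart, they were 65.0 and 204 CPM.

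Counts of called genes moved more than the PROCERA values. For the genotype averaged over treatments 559 genes were called, against 1275 with DESeq2, 1141 without the filter and 119 to 1126 without single libraries. With GA3 the genotype count was 65, against 552 with DESeq2 and 2 to 243 without single libraries. Without GA3 it was 72, against 412 and 1 to 180. For GA3 in M82 it was 3, against 108 with DESeq2, 0 with library totals only and 0 to 22 without single libraries. For GA3 in pro∆GRAS it was 0, against 29 and 0 to 4.

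The library numbers were not taken to pair the samples: nothing in the labels says what a number marks, and not every pair of groups deviated together. Deviations of the libraries numbered 1 correlated over genes at 0.648 between the M82 groups, 0.029 between the pro∆GRAS groups, 0.295 between the genotypes with GA3 and -0.051 between them without GA3; across both genotype and treatment the values were 0.339 and -0.127. With the replicate block, number 1 against the other, the PROCERA log2 fold changes were -1.22 for the genotype averaged over treatments (edgeR adjusted p = 0.00401), -1.64 with GA3 (adjusted p = 0.0157), -0.81 without GA3 (adjusted p = 0.126), 0.75 for GA3 in M82 (adjusted p = 0.314), -0.08 for GA3 in pro∆GRAS, -0.84 for the difference of the GA3 effects and 0.34 for GA3 averaged over genotypes. The block changed no call of PROCERA, and it called 921 genes for the genotype averaged over treatments, 200 with GA3, 166 without GA3 and 33 for GA3 in M82. Counting error was at most 2.96%, against a spread between the 2 libraries of a group of up to 15.8% of the mean.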
